A study of Mus musculus with 12 samples.

Results

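The monocyte-attracting CC chemokines and their receptors were examined in mouse kidney. The family was taken as the array probes whose gene name in the scanner files is Ccl2, Ccl3, Ccl4, Ccl6, Ccl7, Ccl8, Ccl9, Ccl12, Ccr1 or Ccr2, which gave 11 probes for 10 genes among 56605 probes on the array. Of these genes, 9 passed the filter on dim probes and were tested among 25947 genes. The exception was Ccr1. Expression was read from Agilent one-colour arrays, where labelled RNA from 1 kidney is captured by printed probes and spot brightness stands for transcript level. The 4 groups of 3 male mice were Jaml knockout (KO) mice 24 h after ischemia-reperfusion injury (IRI), KO mice after a sham operation, wild-type (WT) mice 24 h after IRI and WT mice after a sham operation, all on a C57 background. IRI means that both renal pedicles are clamped and later released, and the texts of the series give either 40 min or 30 min of clamping. Jaml is a leukocyte adhesion receptor, and the design sets its loss against the response to IRI. Age, and the cells in which Jaml was deleted, were not given in the sources used here.

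CC chemokines are small secreted proteins that bind G protein-coupled receptors on leukocytes and direct their migration. In the mouse, Ccl2, Ccl7 and Ccl12 act on Ccr2, which carries inflammatory monocytes out of the bone marrow and into injured tissue. Ccl3, Ccl6 and Ccl9 act through Ccr1, and mouse Ccl8 acts mainly on Ccr8. In the injured kidney these ligands come from tubular cells as well as from leukocytes, and monocytes recruited through Ccr2 are a major source of kidney macrophages.

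The 8 ligand probes lie in 2 groups on chromosome 11 of the mm9 build given in the files. The probes of Ccl2 (chr11:81850650-81850709), Ccl7 (chr11:81860656-81860715), Ccl12 (chr11:81916710-81916769) and Ccl8 (chr11:81930108-81930167) span 79.5 kb. The probes of Ccl9 (chr11:83388223-83388282), Ccl6 (chr11:83401997-83402056), Ccl3 (chr11:83461358-83461417) and Ccl4 (chr11:83478052-83478111) span 89.9 kb, and 1.46 Mb separates the groups. On chromosome 9 the probes of Ccr1 (chr9:123877790-123877849) and Ccr2 (chr9:124022948-124023007) are 145 kb apart. The exon or UTR that holds each probe was not analysed here. Probes of different family genes shared a run of at most 13 bases of 60 (Ccl8 and Ccl12). The second Ccl4 probe shares 46 of 60 bases with the first, and their values in the comparison of KO sham with WT sham were close (log2 fold changes -1.25 and -1.22), so they do not count as independent probes.

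RefSeq promoter windows (GRCm38.p6) were matched for 7 of the 10 genes, without Ccl2, Ccl4 and Ccl7. The 250 bases before the start site of 3 ligand genes are shown 5′ to 3′ on the gene's own strand, because Ccl9 is the one ligand with a matched window that passed a test below and Ccl12 and Ccl8 are the matched neighbours of Ccl2 and Ccl7. The windows are Ccl9 at chr11:83578637-83578886 on the minus strand, Ccl12 at chr11:82101595-82101844 and Ccl8 at chr11:82114935-82115184 on the plus strand. Capitals mark matches to the 5 motifs searched on both strands, which were NF-kappa-B, AP-1 (TGANTCA), the ISRE core, C/EBP (TTGCNNAA) and the TATA box (TATAAA).
Ccl9: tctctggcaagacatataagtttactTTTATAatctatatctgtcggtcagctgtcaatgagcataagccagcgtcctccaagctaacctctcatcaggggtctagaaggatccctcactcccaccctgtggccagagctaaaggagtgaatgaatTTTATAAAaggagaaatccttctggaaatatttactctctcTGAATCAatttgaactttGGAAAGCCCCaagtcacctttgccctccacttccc
Ccl12: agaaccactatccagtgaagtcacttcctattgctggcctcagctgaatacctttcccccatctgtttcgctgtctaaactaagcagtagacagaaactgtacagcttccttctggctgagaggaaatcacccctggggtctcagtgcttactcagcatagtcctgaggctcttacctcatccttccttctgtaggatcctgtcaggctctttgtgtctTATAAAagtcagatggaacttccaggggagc
Ccl8: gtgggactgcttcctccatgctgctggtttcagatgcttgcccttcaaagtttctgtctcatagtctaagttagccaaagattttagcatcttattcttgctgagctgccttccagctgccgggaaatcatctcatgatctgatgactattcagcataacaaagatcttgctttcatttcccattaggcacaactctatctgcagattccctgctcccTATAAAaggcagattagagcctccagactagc
In Ccl9 the capitals nearest the start are TGAATCA, an AP-1 match that begins at position -53, and GGAAAGCCCC, an NF-kappa-B match on the other strand that begins at -35. The remaining capitals in Ccl9 are TATA matches at -224, -94 and -92, of which the last 2 overlap on opposite strands. Ccl12 and Ccl8 each hold TATAAA, at -31 and -32. Of 32851 promoters in the table, 3.9% hold the NF-kappa-B motif, 6.75% AP-1, 2.98% the ISRE core, 9.56% C/EBP and 12.4% TATA. Among the 7 matched family promoters, NF-kappa-B and AP-1 were each found in 1 (Ccl9), TATA in 3 (Ccl9, Ccl12 and Ccl8), and the ISRE core and C/EBP in 0. These are letter matches within the window and not evidence of binding.

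Between 35598 and 38522 probes per array were well above background (62.9% to 68.1%), and none was saturated. Arrays of a group correlated at 0.968 to 0.995, and WT IRI replicate 1 stood furthest from its group mean, by 0.579 log2 units, against 0.205 to 0.433 for the other arrays. The 6 KO arrays lie on one slide and the 6 WT arrays on another, each scanned as a unit, so genotype and slide cannot be told apart in any comparison of KO with WT, whereas IRI and sham were compared within a slide. Jaml was lower in KO sham than in WT sham kidneys (log2 fold change -2.79 ± 0.56, SE, limma adjusted p = 0.0152). In KO IRI against WT IRI its groups did not overlap but the difference did not pass (-1.57 ± 0.56, limma adjusted p = 0.153). The Jaml probe was well above background on all 6 KO arrays, and KO IRI replicate 1 (-1.89) lay close to WT IRI replicate 2 (-1.80). Whether the Jaml probe lies inside the deleted part was not given in the sources used here. All 9 markers of kidney tubules and glomeruli, such as Umod and Aqp2, were well above background on all 12 arrays.

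Levels below are log2 signals minus the 75th percentile of their array, so 0 is the level of a probe brighter than 75% of probes, and levels of different genes are not compared because probes differ in brightness. Each difference is a log2 fold change from one limma fit over the 12 arrays, with its standard error, and passes at a Benjamini-Hochberg adjusted p of at most 0.05 over all 25947 genes.

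More family genes passed between KO sham and WT sham kidneys than in any other comparison. By size, Ccl3 and Ccl4 differed more in KO IRI against WT IRI (-2.0 and -1.72) than here (-1.13 and -1.22). The other 7 of 9 differed more here than in KO IRI against WT IRI, and the interaction passed for 0 of 9. All 9 measured genes had lower mean levels in KO sham, and 3 of 9 passed the test: Ccl7, Ccl2 and Ccl9. Over all genes 3.73% passed as lower in this comparison. In 8 of 9 genes, all but Ccl8, the 3 KO sham values lay wholly below the 3 WT sham values, against 12.2% of all genes. The median log2 fold change of the family was -1.47, beside 0.125 over all genes. In whole-kidney RNA, fewer cells of a type and less RNA per cell cannot be told apart.

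Ccl2, the principal monocyte chemoattractant, had levels of -1.52, -1.40 and -0.10 in KO IRI, -2.97, -1.15 and -2.70 in KO sham, 0.06, 1.07 and 0.77 in WT IRI, and 0.82, 1.07 and 0.10 in WT sham kidneys. Every KO value lay below every WT value, and the WT IRI and WT sham groups overlapped. Ccl2 was 7.64-fold lower in KO sham than in WT sham (log2 fold change -2.93 ± 0.53, limma adjusted p = 0.0105). Ccl7, a second Ccr2 ligand encoded beside Ccl2, had levels of -4.42, -5.38 and -2.82 in KO IRI, -6.02, -5.11 and -5.86 in KO sham, -2.89, -1.19 and -1.46 in WT IRI, and -2.24, -2.65 and -1.68 in WT sham kidneys. The KO sham group was the lowest on average, with replicate 1 not well above background, and KO IRI replicate 3 reached the lower end of WT IRI. Ccl7 was 11.1-fold lower in KO sham than in WT sham (-3.48 ± 0.63, limma adjusted p = 0.0105). Without KO sham replicate 1 both calls were lost, with Ccl2 at -2.59 and Ccl7 at -3.30 (limma adjusted p = 0.0521 each), and after normexp background correction Ccl7 was at -1.63.

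Ccl9, a Ccr1 ligand made by myeloid cells, had levels of -0.99, -0.63 and 0.56 in KO IRI, -1.90, -1.49 and -1.91 in KO sham, -0.43, 0.47 and 0.93 in WT IRI, and -0.04, -0.12 and -0.44 in WT sham kidneys. The 3 KO sham values lay below all 9 other values. Ccl9 was 2.96-fold lower in KO sham than in WT sham (-1.57 ± 0.41, limma adjusted p = 0.0436). This call was close to the threshold and was lost under 10 of 23 alternatives, which included leaving out any 1 sham array, WT IRI replicate 2 or KO IRI replicate 2 (limma adjusted p = 0.0531 to 0.142).

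Ccl12, the third mouse Ccr2 ligand, had levels of -2.90, -3.05 and -1.05 in KO IRI, -3.0, -1.76 and -3.46 in KO sham, -3.95, -0.22 and -1.51 in WT IRI, and -0.75, -0.75 and 0.24 in WT sham kidneys. The WT IRI group spanned most of the range of the 12 arrays, since its replicate 1 held the lowest value of all. The difference of KO sham from WT sham was -2.32 ± 0.88 (limma adjusted p = 0.136). Ccl8 had levels of -1.52, -1.53 and -1.51 in KO IRI, -2.36, -0.89 and -2.31 in KO sham, -0.56, -1.95 and -1.64 in WT IRI, and -0.09, -1.35 and 0.30 in WT sham kidneys. Its groups overlapped in all 4 pairs compared, and KO sham against WT sham gave -1.47 ± 0.52 (limma adjusted p = 0.107).

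Ccl6, a Ccr1 ligand like Ccl9, had levels of -0.07, 0.02 and 0.50 in KO IRI, -0.36, 0.13 and 0.13 in KO sham, 0.27, 1.52 and 1.61 in WT IRI, and 1.03, 1.06 and 0.85 in WT sham kidneys. The KO values sat together whatever the operation, and KO sham against WT sham gave -1.02 ± 0.33 (limma adjusted p = 0.0826). Ccl3, an inflammatory ligand of Ccr1, had levels of -4.34, -4.77 and -3.36 in KO IRI, -3.47, -3.80 and -3.77 in KO sham, -3.27, -1.45 and -1.76 in WT IRI, and -2.18, -2.18 and -3.30 in WT sham kidneys. All 6 KO values lay below all 6 WT values. Ccl4, an inflammatory chemokine encoded next to Ccl3, had levels of -3.69, -3.75 and -2.37 in KO IRI, -2.45, -2.44 and -2.65 in KO sham, -2.70, -0.34 and -1.60 in WT IRI, and -0.75, -0.73 and -2.39 in WT sham kidneys. WT IRI replicate 1 and WT sham replicate 3 fell within the KO range. In KO sham against WT sham, Ccl3 gave -1.13 ± 0.51 (limma adjusted p = 0.207) and Ccl4 gave -1.22 ± 0.62 (limma adjusted p = 0.266).

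Ccr2, the receptor that marks inflammatory monocytes, had levels of -3.01, -2.82 and -3.002 in KO IRI, -2.41, -1.88 and -2.56 in KO sham, -3.77, -2.40 and -2.11 in WT IRI, and -0.80, -1.01 and -1.57 in WT sham kidneys. The WT sham group was the highest and overlapped no other group. KO sham against WT sham gave -1.16 ± 0.39 (limma adjusted p = 0.0924). Ccr1, the receptor of Ccl3, Ccl6 and Ccl9, was well above background on 0 of 12 arrays, with signals of -8.42 to -6.50, so its level has only an upper bound here and it was not tested.

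**Figure D1:**
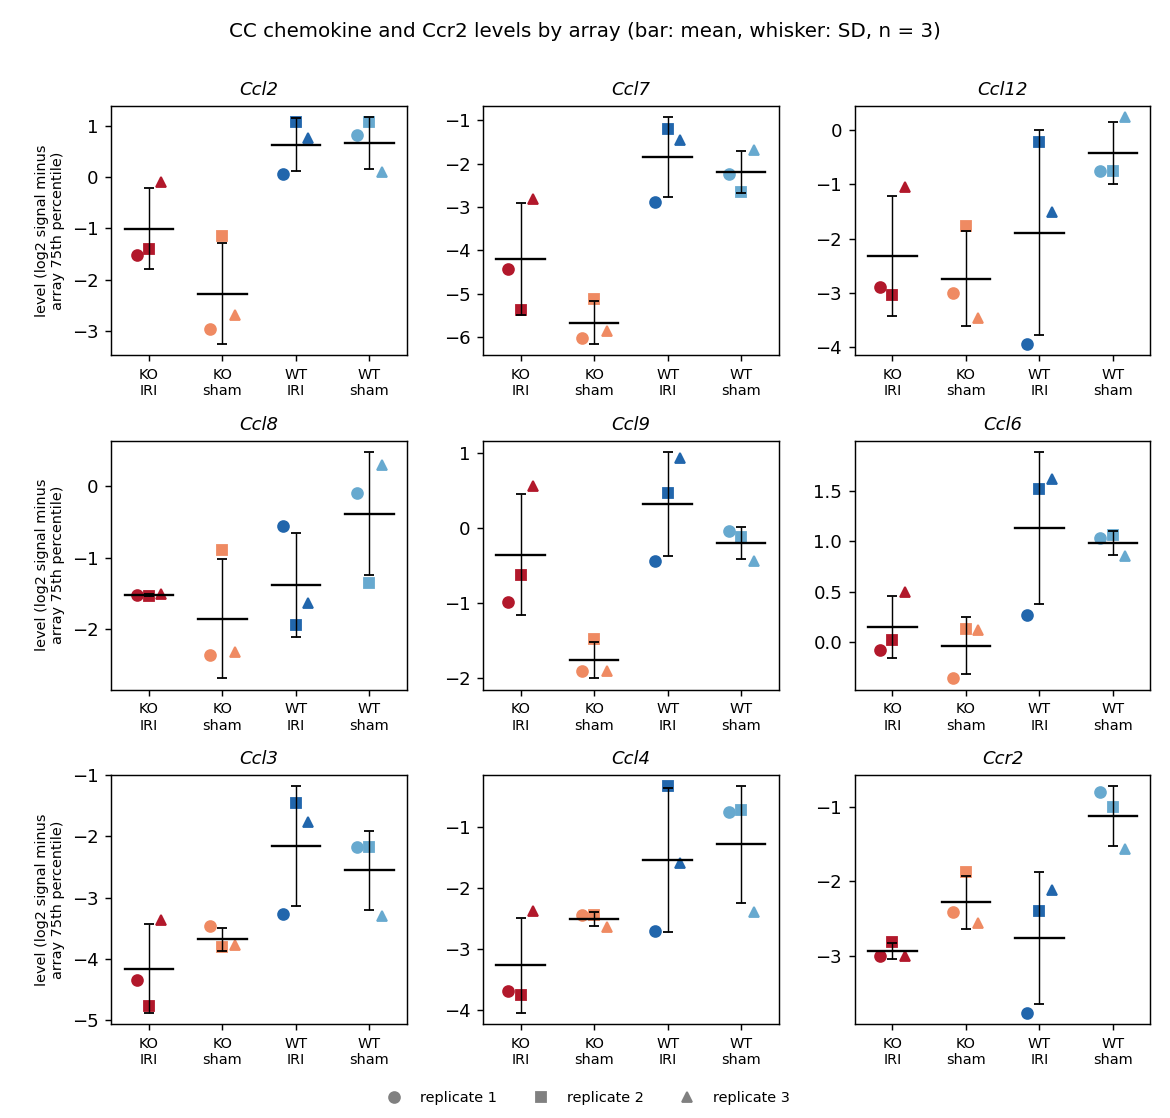
Levels of the 9 measured family genes on each array (log2 signal minus the 75th percentile of the array, separate vertical scale per gene), for KO IRI, KO sham, WT IRI and WT sham from left to right. Points are arrays with the marker giving the replicate number, and bars with whiskers are the mean and SD of 3 arrays. The KO sham points lie below the WT sham points in every panel except that of Ccl8.

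One array in several groups stood apart across the family. WT IRI replicate 1 held the lowest value of its group in 8 of 9 genes, all but Ccl8, and KO IRI replicate 3 held the highest in 8 of 9, all but Ccr2. KO sham replicate 2 held the highest value of its group in 8 of 9, all but Ccl3. Without WT IRI replicate 1, which is in neither sham group, 6 of 9 genes passed as lower in KO sham than in WT sham. Ccl6, Ccl12 and Ccr2 were added (limma adjusted p = 0.00819, 0.0393 and 0.0118). The share of all genes called in either direction rose as well, from 8.85% to 17%. Without KO sham replicate 1, 0 of 9 passed, and 2.5% of all genes were called.

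After IRI all 9 genes again had lower mean levels in KO than in WT kidneys, and 0 of 9 passed. The sign of 3 of them depended on 1 WT IRI array, with Ccl8 at 0.27 without replicate 1, Ccl12 at 0.40 without replicate 2 and Ccr2 at 0.14 without replicate 3, and Ccl8 was also positive with limma array weights (0.13). Ccl7 (-2.36 ± 0.63, limma adjusted p = 0.0867), Ccl3 (-2.0 ± 0.51, 0.0772), Ccl4 (-1.72 ± 0.62, 0.160) and Ccl2 (-1.64 ± 0.53, 0.131) differed most. The other values were -0.98 ± 0.33 for Ccl6, -0.68 ± 0.41 for Ccl9, -0.44 ± 0.88 for Ccl12, -0.18 ± 0.39 for Ccr2 and -0.14 ± 0.52 for Ccl8. Over all genes 1.02% passed as lower. Before adjustment, 5 of 9 had limma p under 0.05 and were lower (Ccl2, Ccl3, Ccl4, Ccl6 and Ccl7), beside 9.75% of all genes. Ccl2 and Ccl3, 2 of 9 genes, were lower without overlap, against 9.45% of all genes. The family median was -0.98, beside 0.0382 over all genes. Without WT IRI replicate 1, Ccl3 (-2.56, limma adjusted p = 0.0209) and Ccl6 (-1.41, 0.0114) passed, and without KO IRI replicate 3, Ccl7 (-3.05, 0.0344) passed.

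At 24 h after IRI, 1 of 9 family genes passed against sham in WT and 0 of 9 in KO. Over all genes 12% and 6.16% passed in either direction, so with 9 genes these counts are near the shares of all genes. Standard errors of 0.33 to 0.88 limit what these comparisons can show. In WT IRI against WT sham kidneys Ccr2 was 3.11-fold lower (-1.64 ± 0.39, limma adjusted p = 0.0244), and it was the 1 of 9 genes to pass and the 1 of 9 without overlap. Over all genes 5.9% passed as lower, and 15.1% were lower without overlap. The Ccr2 call was lost without WT sham replicate 1 (-1.48, limma adjusted p = 0.0933) or replicate 2 (-1.58, 0.0837), and in a fit to the WT arrays alone (0.126). Ccl12 (-1.47 ± 0.88), Ccl8 (-1.0 ± 0.52), Ccl4 (-0.26 ± 0.62) and Ccl2 (-0.03 ± 0.53) had negative values that did not pass. Ccl9 (0.52 ± 0.41), Ccl3 (0.40 ± 0.51), Ccl7 (0.35 ± 0.63) and Ccl6 (0.15 ± 0.33) had positive values that did not pass. The family median was -0.03, beside -0.01 over all genes.

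Between KO IRI and KO sham kidneys 0 of 9 genes passed, against 6.16% of all genes in either direction, and limma p before adjustment was under 0.05 for 3 of 9, all higher, beside 7.38% of all genes higher at that level. These were Ccl7 (1.46 ± 0.63, limma adjusted p = 0.218), Ccl9 (1.41 ± 0.41, 0.0745) and Ccl2 (1.27 ± 0.53, 0.206), the 3 genes that passed in KO sham against WT sham. Both comparisons use the KO sham arrays. Ccl9 was higher without overlap in KO IRI (13.9% of all genes), and Ccr2 was lower without overlap (-0.66 ± 0.39, limma adjusted p = 0.363), beside 21.8% of all genes. The remaining values were 0.41 ± 0.88 for Ccl12, 0.33 ± 0.52 for Ccl8, 0.19 ± 0.33 for Ccl6, -0.48 ± 0.51 for Ccl3 and -0.76 ± 0.62 for Ccl4. Without WT IRI replicate 1, Ccl9 passed (1.41, limma adjusted p = 0.0332).

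The difference between the IRI responses of KO and WT, tested as the interaction, passed for 0 of 9 genes, and before adjustment 0 of 9 had limma p under 0.05. Over all genes 0.0694% passed, and 9.77% had p under 0.05 before adjustment. Its values ran from -0.87 ± 0.72 for Ccl3 to 1.89 ± 1.25 for Ccl12, with limma adjusted p of 0.554 to 0.983. The standard errors were 0.46 to 1.25.

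**Figure D2:**
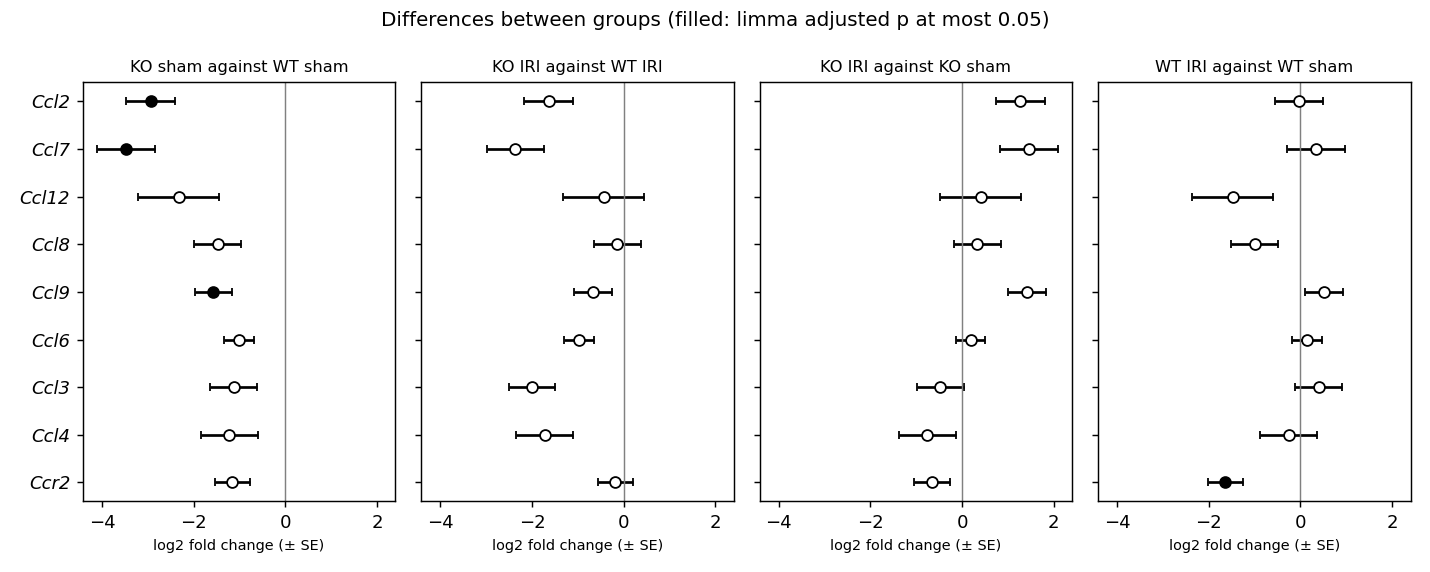
Log2 fold changes with standard errors of the 9 measured genes (rows) in KO sham against WT sham, KO IRI against WT IRI, KO IRI against KO sham and WT IRI against WT sham, from left to right; the first-named group is on top of each ratio. Filled points passed at a limma adjusted p of at most 0.05: Ccl2, Ccl7 and Ccl9 in the first panel and Ccr2 in the last.

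How alike 2 genes were over the 12 arrays was described by the root mean square difference of their levels after each was centred and divided by its SD, so lower is more alike and the points share arrays, genotype and slide. The closest pairs were Ccl3 with Ccl4 (0.333) and Ccl2 with Ccl7 (0.351), each a pair of neighbours on chromosome 11. Position alone did not order the rest: Ccl8 and Ccl12, also neighbours, differed by 1.04. The 12 ligand pairs within a chromosomal group had a median of 0.731 (0.333 to 1.04) and the 16 pairs between groups a median of 0.753 (0.437 to 1.31). Ccr2 differed from the 8 ligands by 0.763 to 1.27, and it was nearest to Ccl12. Among all other genes with an ordinary symbol, those most like Ccl2 were Slc15a3 (0.24), Apobr (0.278) and Plek (0.282), and those most like Ccl7 were Cd44 (0.316), Tmsb10 (0.321) and Alox5ap (0.332). Ccl9 was most like Trp53 (0.273), Clec5a (0.31) and Fxyd5 (0.318), and Ccr2 was most like Dock2 (0.273), Armc3 (0.301) and Galnt12 (0.302).

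**Figure D3:**
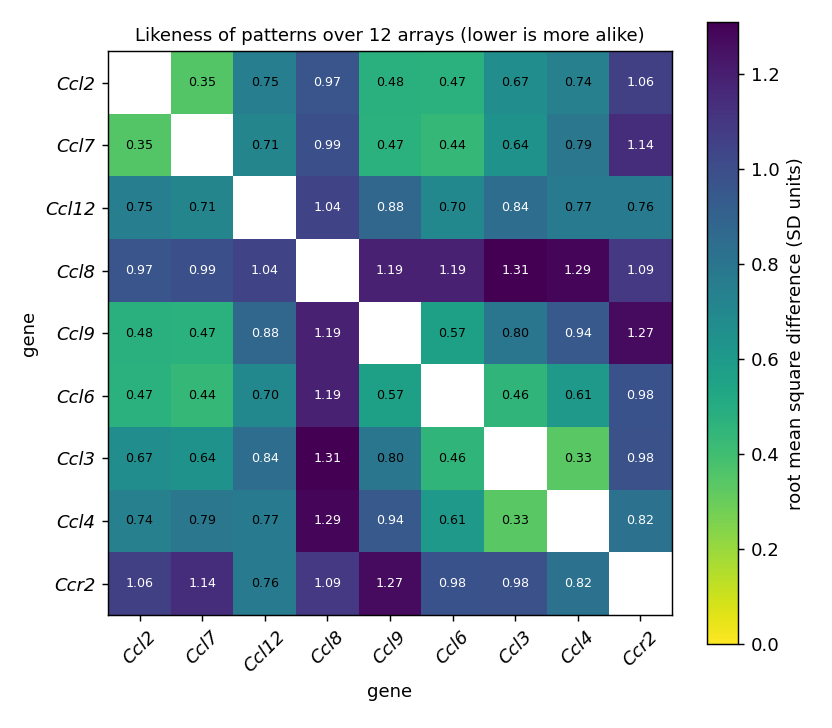
Root mean square difference between the patterns of each pair of family genes over 12 arrays, in SD units, ordered by position along chromosome 11 with Ccr2 last. Ccl3 with Ccl4 and Ccl2 with Ccl7 are the most alike, and the Ccl8 row and column are the least alike to the others.

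Other genes of the pathway were read from fixed lists. Over all genes, 5.12% passed as higher and 3.73% as lower in KO sham against WT sham, and 6.08% and 5.9% in WT IRI against WT sham. The shares were 2.1% and 4.05% in KO IRI against KO sham, and 0.91% and 1.02% in KO IRI against WT IRI. A list count of 1 is not read as a result about its list. Of 17 other CC chemokines and receptors tested, 1 was higher and 3 were lower in KO sham than in WT sham kidneys. Ccl5, a T cell and monocyte attractant, was lower (-2.36 ± 0.57, limma adjusted p = 0.0316), and the epithelial chemokine Ccl28 was higher (2.15 ± 0.41, 0.013). Ccl20, the Ccr6 ligand, was at least 4.1-fold lower (limma adjusted p = 0.0317), since no KO sham array had its probe well above background. This bound holds on the main scale, and after normexp background correction the log2 fold change of Ccl20 was -0.92 and did not pass (0.233). In WT IRI against WT sham 6 of 17 were lower and 0 higher, led by Ccl5 (-2.20 ± 0.57, limma adjusted p = 0.0332), and in KO IRI against KO sham 4 were lower and 0 higher, led among genes measured in both groups by Ccl28 (-1.91 ± 0.41, 0.0254). KO IRI against WT IRI had 0 calls. Leaving out 1 KO sham array (replicate 1 or 3) ended the calls of Ccl5, Ccl20 and Ccl28 in KO sham against WT sham (limma adjusted p = 0.0585 to 0.118), and leaving out WT sham replicate 1 or 2 ended those of Ccl5 and Ccl20 (0.0933 to 0.11). Ccl20 was also lost without KO sham replicate 2 (0.0873), and Ccl5 in fits to the compared groups alone (0.0765 in sham, 0.128 in WT). The WT IRI call of Ccl5 was lost without WT sham replicate 1 or 2 or WT IRI replicate 2 or 3 (0.0525 to 0.122), and the KO IRI call of Ccl28 without KO sham replicate 1 or 3 or KO IRI replicate 1 or 3 (0.0502 to 0.101). Counts with 1 array left out ran from 1 to 5 in KO sham against WT sham (1 without KO sham replicate 1 or 3, 2 without WT sham replicate 1), from 0 to 6 in WT IRI against WT sham (0 without WT sham replicate 1 or 2) and from 1 to 5 in KO IRI against KO sham (1 without KO sham replicate 1 or 3 or KO IRI replicate 1).

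Of 18 other genes of monocyte recruitment and survival, 7 were lower and 0 higher in KO sham than in WT sham kidneys. Itgb2, the beta chain of leukocyte integrins (-2.11 ± 0.33, limma adjusted p = 0.00642), and Vcam1, the endothelial ligand of another leukocyte integrin (-1.97 ± 0.33, 0.00769), passed under every alternative run. Cd74, the invariant chain and a receptor of Mif, was lower as well (-3.59 ± 0.72, 0.0162), but not without WT sham replicate 1 or 2 or KO sham replicate 1 or 3 (0.0517 to 0.0668). In WT IRI against WT sham 3 were higher and 3 lower. P-selectin (Selp), which slows leukocytes on the vessel wall, was higher there (2.19 ± 0.31, limma adjusted p = 0.00371) and lower in KO IRI than in WT IRI (-1.90 ± 0.31, 0.0156), where 2 were lower and 0 higher. A fit to the IRI arrays alone ended the second Selp call (0.138). Between KO IRI and KO sham 1 was higher and 2 were lower, led by Itgam (-2.11 ± 0.41, limma adjusted p = 0.0169), a call lost without KO sham replicate 2 (0.0554) and in a fit to the KO arrays alone (0.0549). The 7 calls in KO sham against WT sham became 4 without WT sham replicate 1 or 2 or KO sham replicate 1 or 3, the 6 in WT IRI against WT sham became 1 without WT sham replicate 1 or 2 or WT IRI replicate 3, the 2 in KO IRI against WT IRI became 1 without WT IRI replicate 3 or KO IRI replicate 2, and the 3 in KO IRI against KO sham became 5 without WT IRI replicate 1.

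Of 19 genes of chemokine receptor signalling, 8 were lower and 0 higher in KO sham than in WT sham kidneys. Rgs1, which shortens signalling of chemokine receptors in leukocytes, was lower there (-2.91 ± 0.50, limma adjusted p = 0.00861) and in KO IRI against WT IRI (-2.67 ± 0.50, 0.0302), where 2 were lower and 0 higher. The Rgs1 call in KO IRI against WT IRI was lost without WT IRI replicate 3, KO sham replicate 1 or any 1 KO IRI array (0.0506 to 0.0659), in a fit to the IRI arrays alone (0.17) and after normexp background correction (-1.41, 0.0532). It was also lost with replicate number as a block. The 2 calls of the list in that comparison became 1 when any of these arrays was left out, and other fits gave as few as 0. Dock2, a Rac activator needed for leukocyte migration, was lower in KO sham against WT sham (-2.01 ± 0.39, limma adjusted p = 0.0138) and in WT IRI against WT sham (-2.11 ± 0.39, 0.0113), where 1 was higher and 2 were lower. Without WT sham replicate 1 or 2 neither Dock2 call passed, and without KO sham replicate 1 or 3 the first did not (0.0501 to 0.0609), nor did the second in a fit to the WT arrays alone (0.0779). Between KO IRI and KO sham 1 was higher and 0 lower, and this call was lost when any array but WT IRI replicate 1 was left out. The 8 calls in KO sham against WT sham became 3 or 4 without WT sham replicate 1 or 2 or KO sham replicate 1 or 3, and the 3 in WT IRI against WT sham became 1 without WT sham replicate 1 or 2.

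Of 16 inducers and brakes of CC chemokine transcripts, 1 was higher and 4 were lower in KO sham than in WT sham kidneys. The higher one was Tnf, an inducer of these ligands (0.65 ± 0.14, limma adjusted p = 0.0204), named after its value was seen. Its direction turned to -1.02 (0.161) with the mean of all kept probes of the gene, and its call was lost without WT sham replicate 1 or 3 or KO sham replicate 1 or 3 (0.0578 to 0.0846). Irf1, an interferon regulatory factor, was lower (-2.82 ± 0.55, limma adjusted p = 0.0142), as was the NF-kappa-B subunit Relb (-1.42 ± 0.27, 0.0134). The Irf1 and Relb calls were lost without KO sham replicate 1 or 3 (0.0582 to 0.0661). In WT IRI against WT sham 3 were higher and 3 lower, and the immediate early gene Fos, a part of AP-1, was higher (2.91 ± 0.53, limma adjusted p = 0.0107), though not in a fit to the WT arrays alone (0.062). Counts with 1 array left out ran from 1 (without KO sham replicate 1) to 10 (without WT IRI replicate 1) in KO sham against WT sham, and from 1 (without WT sham replicate 1 or 2 or WT IRI replicate 3) to 5 in WT IRI against WT sham. Between KO IRI and KO sham 1 was higher and 0 lower, and in KO IRI against WT IRI 0 were higher and 1 lower, with 0 to 7 and 0 to 2 calls when 1 array was left out (7 without WT IRI replicate 1). Of 5 scavenging and atypical receptors, Ackr2, which removes inflammatory CC chemokines, was lower in KO sham than in WT sham (-1.45 ± 0.33, limma adjusted p = 0.0251) and Ackr1 was higher in WT IRI than in WT sham (1.88 ± 0.37, 0.0139). The Ackr2 call was lost without WT sham replicate 3 or KO sham replicate 1 or 3 (0.0688 to 0.103), and the Ackr1 call without WT sham replicate 1 (0.0596). No other scavenging receptor passed in a comparison between 2 groups, and no gene of any of these lists passed in the interaction.

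Markers of leukocytes differed between the groups as well, and the shares over all genes given above for the lists apply to their counts. Of 20 monocyte and macrophage markers, 0 were higher and 6 lower in KO sham than in WT sham kidneys, led by Fcgr1 (-2.32 ± 0.39, limma adjusted p = 0.00823). Their summed linear level, in units of the 75th percentile of the array, was 177.7 to 205.7 in KO sham and 299.8 to 357.8 in WT sham. It was 144.5 to 179.7 in KO IRI and 205.8 to 449.1 in WT IRI, where 0 were higher and 1 was lower (Chil3, -2.46 ± 0.32, limma adjusted p = 0.00773), a call lost in a fit to the IRI arrays alone (0.0531). Such a sum gives bright probes more weight. The mean of the same 20 markers after centring, which weights genes equally, put the groups of KO mice in the other order, at -0.33 to 0.15 in KO IRI and -0.80 to -0.24 in KO sham, and it was 0.28 to 0.42 in WT IRI and 0.27 to 0.48 in WT sham. The 9 family genes summed to 2.59 to 5.22 in KO IRI, 1.97 to 3.29 in KO sham, 4.19 to 9.25 in WT IRI and 6.97 to 7.92 in WT sham. In WT IRI against WT sham 4 monocyte and macrophage markers were higher and 5 lower, and in KO IRI against KO sham 3 were higher and 2 lower. Of 11 T and NK cell markers 6 were lower in KO sham than in WT sham, with sums of 2.43 to 4.29 in KO sham and 4.56 to 35.5 in WT sham. In WT IRI (sums of 2.10 to 2.97) 9 of 11 were lower than in WT sham, 0 passed in KO IRI (sums of 1.76 to 2.07) against KO sham, and 0 passed in KO IRI against WT IRI. WT sham replicate 3 had the lowest T and NK cell sum of its group, and without it 10 were called in KO sham against WT sham, against 1 without WT sham replicate 1 or 2 or KO sham replicate 1 or 3. Without that same array 7 were called in KO IRI against KO sham and 2 in KO IRI against WT IRI, and fits to the compared groups alone called 4 and 1. The 9 calls in WT IRI became 3 or 4 without WT sham replicate 1 or 2 or WT IRI replicate 3. They became 0 in a fit to the WT arrays alone, and a fit to the sham arrays alone called 1 in KO sham against WT sham. Of 9 neutrophil markers 3 were lower in KO sham than in WT sham and 3 lower in KO IRI than in WT IRI, with sums of 42.3 to 74.2 in KO IRI, 58.8 to 77.5 in KO sham, 112 to 122 in WT IRI and 60.5 to 89.9 in WT sham. Their centred means were -0.76 to 0.42 in KO IRI, -2.06 to -0.96 in KO sham, 1.9 to 2.06 in WT IRI and -0.69 to 0.63 in WT sham. In IRI against sham 2 were higher in KO, and in WT 6 were higher and 1 was lower. The lower one was Ly6g, a commonly used neutrophil marker (log2 fold change -1.16 to -0.75 over the alternatives). Its call was lost in a fit to the WT arrays alone (limma adjusted p = 0.096). Without KO sham replicate 1 or 3 the neutrophil calls in KO sham against WT sham became 1, and without KO IRI replicate 2 those in KO IRI against WT IRI became 0. The 7 neutrophil calls in WT IRI against WT sham became 3 or 4 without WT sham replicate 1 or 2 or WT IRI replicate 3, and 2 in a fit to the WT arrays alone. The 2 in KO IRI against KO sham became 1 without KO sham replicate 1 or 3. The monocyte and macrophage calls became 10 in KO sham against WT sham without WT IRI replicate 1, and 2 in WT IRI against WT sham without WT sham replicate 1 or 2 or WT IRI replicate 3. In KO IRI against KO sham the 5 became 2 or 3 without WT sham replicate 1 or any 1 KO array. The markers Ngp (neutrophils) and Ncr1 (NK cells) did not pass the filter on dim probes. The part of these markers in the family's differences was not tested.

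**Figure D4:**
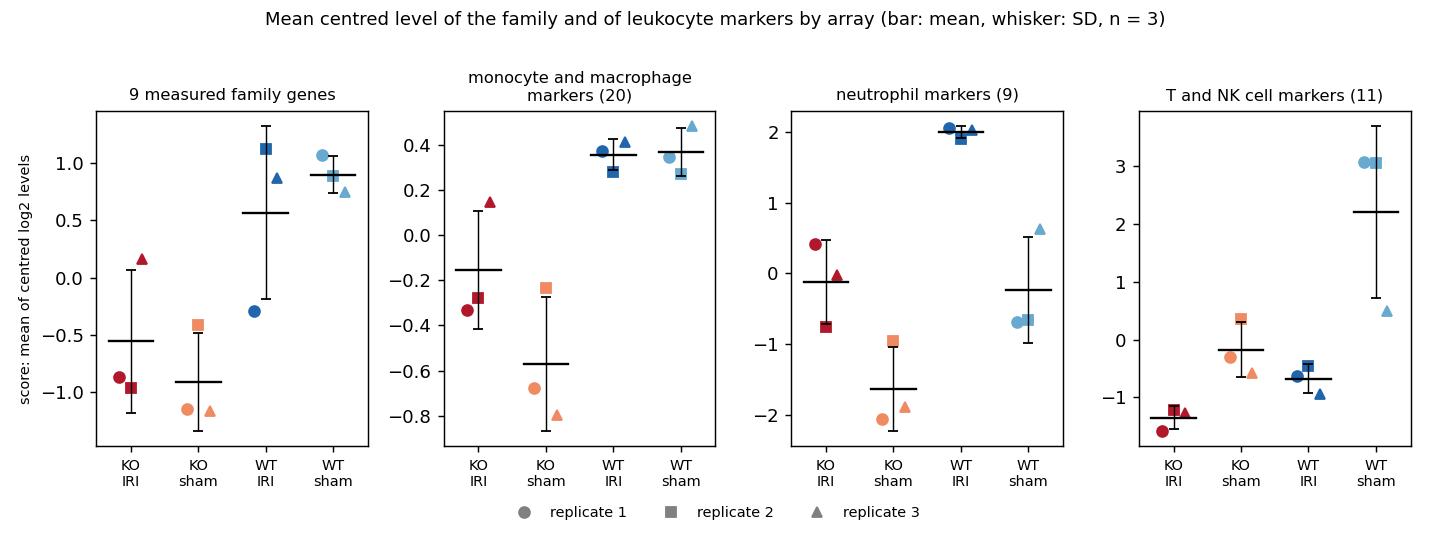
Mean level of the 9 family genes and of 20 monocyte and macrophage, 9 neutrophil and 11 T and NK cell markers on each array, after each gene was centred on its mean over 12 arrays (log2 units, separate vertical scales), for KO IRI, KO sham, WT IRI and WT sham from left to right. Bars and whiskers are the mean and SD of 3 arrays. The family score ran from -1.17 to -0.42 in KO sham and from 0.75 to 1.07 in WT sham, and the monocyte and macrophage score from -0.80 to -0.24 in KO sham and from 0.27 to 0.48 in WT sham.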

How the data were processed

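RNA from 12 mouse kidneys was hybridised to one-colour Agilent arrays, 3 per group. Per the file headers, the deposited spot intensities come from Agilent Feature Extraction 10.7.1.1, and the processed signal was background-corrected and detrended within each array, without scaling between arrays. The authors' own log2 values, also deposited, served as an alternative. Per array they correlated with the log2 signal at 0.9995 or more, with a median of 5.71 on each array, and the method that set this median is not stated. The submitters' processing notes name limma.

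From 62976 spots per array, control spots and outlier flags were left out (59305 spots are not controls), spots of a probe were averaged, and the log2 signal was reduced by the array's 75th percentile. Probes well above background on at least 3 of 12 arrays were kept (39449), with the brightest kept probe per gene (25947 genes). Symbols of 32994 probes were updated by accession through RefSeq GRCm38.p6, and 23611 kept the file name. limma 3.58.1 in R 4.3.3 was fitted with 1 coefficient per group (8 residual degrees of freedom), with two-sided tests and p-values adjusted by Benjamini-Hochberg across all genes, and was tested on simulated data. A bound sets the mean of the brighter group against the higher of the dim probe's signal and the lowest signal well above background per array. Family genes and lists were chosen with earlier results of these data known. Named list genes are up to 3 per list and comparison with the largest change among those that passed, and some genes that this takes are not reported here. Precision is limited by the number of arrays. The series text calls the 3 samples per group independent. Replicate numbers did not pair samples (18 same-number pairs correlated at -0.267 to 0.151, 4 of them over 0.1).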

Additional observations from a re-analysis of the deposited data

How the results depend on the processing

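Across 45 results of single family genes and their 1053 alternatives, 986 kept the side of the threshold, 15 lost a call, 52 gained one and 0 reversed a call. Direction was compared only where a call was made. The 986 therefore include values that changed sign without passing, such as Ccl2 in WT IRI against WT sham (-0.31 to 0.26). All 207 values of KO sham against WT sham were negative, as were 202 of 207 for KO IRI against WT IRI. Many of these signs were fixed in advance. Leaving out an array outside the compared groups, the replicate block and the fit to the compared groups alone all return the main fold change. In KO sham against WT sham, leaving out a compared array could not turn the sign of the 8 of 9 genes without overlap. Counts of family genes that passed (main 1, 0, 3, 0 and 0 for WT IRI against WT sham, KO IRI against KO sham, KO sham against WT sham, KO IRI against WT IRI and the interaction) moved as follows. A fit to the compared groups alone gave 0 for WT IRI against WT sham and 6 for KO sham against WT sham. The share of all genes called moved with them, from 12% to 1.61% and from 8.85% to 15.6%. No filter on dim probes gave 2 for KO sham against WT sham, with 4.34% of all genes called. limma array weights gave 3, 3, 9, 6 and 0 in that order, while the share of all genes called grew to 48.5%, 20.4%, 35.2%, 19.4% and 10.5%. These weights ran from 0.101 for WT IRI replicate 1 to 5.35 for WT IRI replicate 3. Weights by REML on genes with no missing value, chosen after seeing the data and stopped by the tool before convergence, gave 6, 3, 9, 7 and 3, with 25.3% to 60.6% of all genes called. Leaving out 1 array gave 0 to 1, 0 to 1, 0 to 6, 0 to 2 and 0. The share of all genes called then ran from 3.26% to 18%, 1.75% to 12.5%, 2.5% to 17%, 0.563% to 3.74% and 0.0154% to 0.57%. The fit with replicate number as a block gave 1, 0, 3, 0 and 0, with no family call changed, while the calls over all genes went to 2483, against 3109 without the block, in WT IRI against WT sham and to 279, against 501, in KO IRI against WT IRI. The numbers were not found to pair samples. Slide as a block repeats the main values by construction, since slide and genotype coincide, and tests nothing. Other scalings shifted the median of all genes by at most 0.0782. For 34 list counts above 0, 230 of 802 alternatives moved the count by over 1.5 times. Tnf in KO sham against WT sham (0.65) turned to -1.02 (limma adjusted p = 0.161) with the mean of all kept probes, and the cause was not tested. Ccl7 in KO sham and Ccr1 throughout are limited by signal near background.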
